A study of Mus musculus with 17 samples.

Results

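The genes described here are the transcription factor Atf4 and 9 genes of its stress response and of serine synthesis, measured in mouse embryonic stem cells. The 10 genes, chosen by symbol and matched to Ensembl identifiers through GENCODE M21, are Atf4, Atf5, Ddit3, Asns, Trib3, Chac1, Slc7a11, Phgdh, Psat1 and Shmt2. They are 10 of the 47729 genes in the count files, and all 10 passed the filter on low counts. The list names symbols and sets no threshold on a measured value, but it was drawn up with earlier results of these data known.

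RNA of 17 cultures was sequenced to compare stem cells held in different media or moving toward a primed state. One set had 4 groups of 1 R1 and 1 CGR8 library each. R1 and CGR8 are established mouse embryonic stem cell lines and served as the replicates (n = 2 per group). A separate set followed R1 alone for 4 days in each of 2 media, with 1 library per day and no replicates. All cultures were in serum-free N2B27 with LIF, a cytokine that supports self-renewal, so no library shows cells without LIF. L2i held 3 uM CHIR99021, a GSK3 inhibitor that activates Wnt signalling, and 0.1 uM PD325901, a MEK inhibitor. LIM held 0.1 uM PD325901 and 2 uM IWP2, which blocks the release of Wnt ligands. LFAI held 12 ng/ml FGF2, 20 ng/ml Activin A and 2 uM IWP2, with neither CHIR99021 nor PD325901. Its cells were taken at 35 h or at 4 days. The LIM cells of the both-line set were not freshly switched, since R1 had been in LIM for 4 passages and CGR8 for 6, after 5 passages in 2i each. The L2i cells had been in 2i for 10 (R1) and 8 (CGR8) passages, the LFAI cells of 35 h for 9 and 7, and the LFAI cells of 4 days for 3 and 9. Medium, time in that medium and passage history therefore cannot be told apart in these comparisons. The time-course cells, of passage number 32, had been in 2i for 5 passages on day 0, 4 on days 1 to 3 and 3 on day 4. Day 0 and day 4 thus differ from the days between in passages in 2i as well, and these cannot be told apart. Time-course cells grew on gelatin with fetal calf serum and the others on gelatin with basement membrane extract, and the sets used different sequencing protocols. The sets were scaled separately.

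Each library held 12889029 to 22593805 reads assigned to genes, with a further 47.7 to 51.9% of reads assigned to none. The R1 library in L2i was the deepest and had the fewest genes detected (18733, against up to 22303 in the others). The 7 pluripotency markers summed to 2685 to 5508 CPM (counts scaled to library size) in the both-line set and 2098 to 5131 CPM in the time courses. Within them Pou5f1 stayed at 1190 CPM or more in the both-line set, while Esrrb was at 8.37 (R1) and 4.44 CPM (CGR8) after 4 days in LFAI. Over the same libraries 6 fibroblast or feeder markers summed to 8.14 to 28.1 CPM, 5 primitive endoderm markers to 0.849 to 10.1 CPM and 5 trophoblast markers to 5.26 to 20.8 CPM. Within the last 2 lists of the both-line set Gata6 and Elf5 were at most 0.357 CPM, while Gata4 was at 7.01 (R1) and 5.05 CPM (CGR8) in LIM, Cdx2 at 6.89 and 5.18 CPM in L2i, Gata3 at 6.64 and 3.39 CPM in LIM and Eomes at up to 15.2 CPM (R1, 4 days in LFAI). The part of these markers in the results was not tested. In bulk RNA, fewer cells expressing a gene and less RNA per cell cannot be told apart. Nothing in the labels says that a line was cultured more than once per medium, so p-values measure the spread between 1 R1 and 1 CGR8 library in each group.

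ATF4 is a basic leucine zipper factor of the integrated stress response. Several kinases that sense amino acid shortage, unfolded protein, haem shortage or viral RNA phosphorylate the initiation factor eIF2, which slows most protein synthesis and at the same time favours translation of the Atf4 mRNA through its upstream reading frames. ATF4 then activates genes for amino acid synthesis and import, for the charging of tRNA and for feedback, and with CHOP (Ddit3) it can turn the response toward cell death. Serine made from a glycolytic intermediate by PHGDH, PSAT1 and PSPH supplies glycine and one-carbon units, which growing stem cells use for nucleotides and methylation. RNA-seq reads the Atf4 mRNA and not the protein, whose level is set largely by translation.

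Promoter sequences were examined because ATF4, paired with C/EBP proteins, binds the C/EBP-ATF response element. The element was searched as TGATGNAA on both strands of RefSeq windows (GRCm38.p6) from 250 bases before to 50 bases after each annotated start, 12 windows for the 10 genes. Asns, Trib3, Chac1 and Slc7a11 held a match, 4 of the 10 genes, against 4.51% of 27025 genes (3.97% of 32851 windows). The 3 sequences shown are the 250 bases before the start of Asns (chr6:7693210-7693459, minus strand), Chac1 (chr2:119350992-119351241, plus strand) and Slc7a11 (chr3:50443614-50443863, minus strand). They include the gene that was lower than in L2i in every other group (Asns) and the one with the largest fold change (Slc7a11). Each is given 5′ to 3′ on the gene's strand, and capitals mark the matches, which read TTGCATCA where the element lies on the opposite strand.
Asns: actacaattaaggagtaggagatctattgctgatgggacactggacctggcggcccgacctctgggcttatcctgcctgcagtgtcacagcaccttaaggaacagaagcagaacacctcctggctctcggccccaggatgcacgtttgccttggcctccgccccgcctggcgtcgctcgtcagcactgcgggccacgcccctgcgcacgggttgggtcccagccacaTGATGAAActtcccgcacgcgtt
Chac1: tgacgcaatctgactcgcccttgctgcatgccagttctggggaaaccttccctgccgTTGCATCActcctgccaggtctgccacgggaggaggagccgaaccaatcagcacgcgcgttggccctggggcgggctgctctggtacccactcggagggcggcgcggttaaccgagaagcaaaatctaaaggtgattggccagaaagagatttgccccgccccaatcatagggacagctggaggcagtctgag
Slc7a11: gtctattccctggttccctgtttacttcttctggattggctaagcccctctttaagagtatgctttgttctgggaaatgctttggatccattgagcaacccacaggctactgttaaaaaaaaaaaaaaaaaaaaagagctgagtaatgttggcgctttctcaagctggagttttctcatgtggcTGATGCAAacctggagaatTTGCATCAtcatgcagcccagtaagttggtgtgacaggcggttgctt
The match of Asns lay at bases -23 to -16 from the RefSeq start, and that of Chac1 at -193 to -186. GENCODE M21 lets the Asns gene reach to base 7693254, so that match lies inside the gene as annotated there. Slc7a11 held a pair of matches, at -66 to -59 and at -47 to -40, and 0.07% of all windows hold 2 or more. In Trib3 the match lay past the start, at +15 to +22. Atf4, Atf5, Ddit3, Phgdh, Psat1 and Shmt2 had no match in these windows, which says nothing of sites elsewhere. The ER stress element was in none of the 12 windows (0.119% of all), and the antioxidant response element core TGACNNNGC was in those of Asns and Phgdh (12.4% of all). A match is a run of letters and was not tested for binding.

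The 10 genes differed widely in level, and levels between genes are compared here only as CPM per kb of merged exons. In L2i the mean level of Asns was 364 ± 49.8 CPM per kb (SD, n = 2 throughout), the highest of the 10, followed by Atf4 at 186 ± 44.5. Psat1 stood at 126 ± 37.1 and Shmt2 at 96.8 ± 27.4 CPM per kb. Slc7a11 was lowest at 0.114 ± 0.0729 CPM per kb. After 4 days in LFAI the order at the top was different. Psat1 led at 286 ± 38.3 CPM per kb, with Atf4 at 248 ± 57.3, a difference no larger than either SD. Asns was then at 195 ± 30.5, Shmt2 at 159 ± 1.76, Atf5 at 125 ± 28.6 and Phgdh at 102 ± 5.27 CPM per kb. Slc7a11 remained lowest at 1.13 ± 0.137 CPM per kb.

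**Figure D1:**
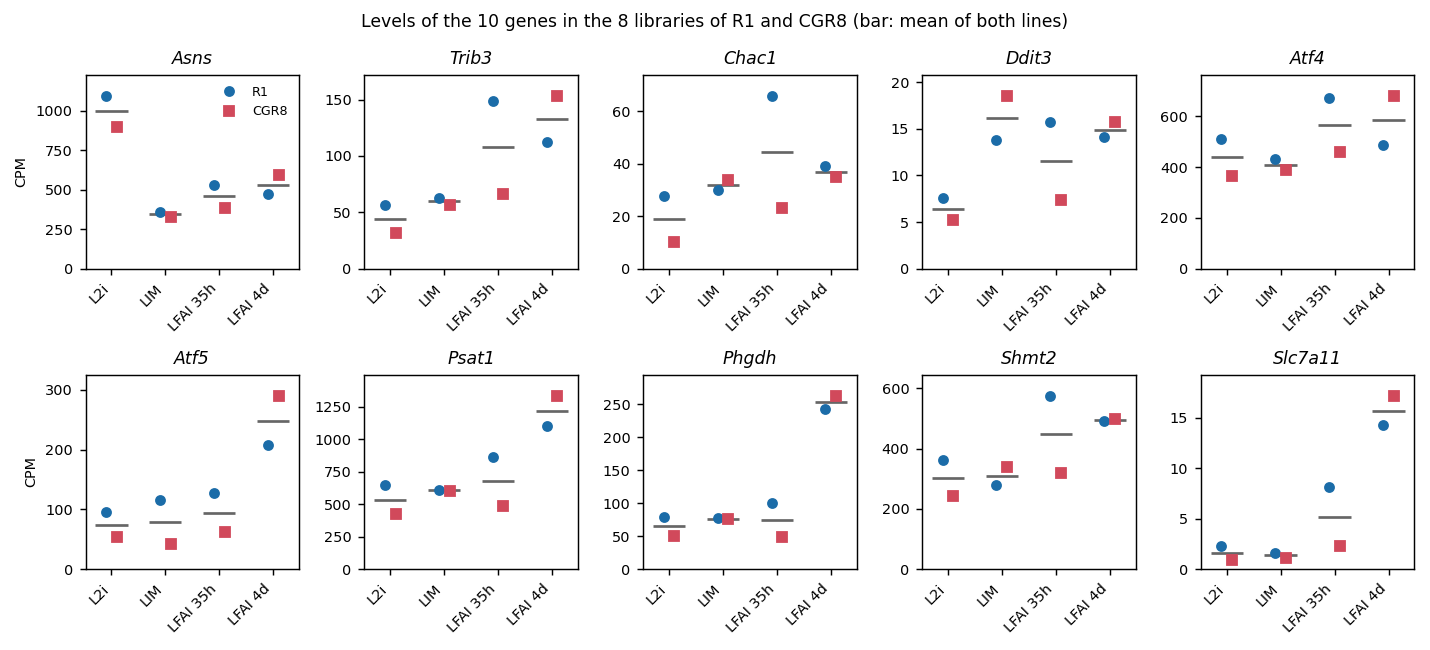
CPM of each of the 10 genes (y axis, from 0, own scale per panel) in the 4 groups of the both-line set (x axis). Blue circles are R1, red squares CGR8 and grey bars their mean. Asns is highest in L2i (1093 and 900 CPM), whereas Atf5, Psat1, Phgdh and Slc7a11 have both LFAI 4-day libraries above all 6 others.

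The Atf4 mRNA itself did not pass the test in any comparison of groups with the filter on low counts. Atf4 (chr15:80255184-80257541, plus strand, GRCm38) was at 512 (R1) and 364 CPM (CGR8) in L2i, 432 and 387 CPM in LIM, 672 and 460 CPM after 35 h in LFAI, and 488 and 679 CPM after 4 days. The groups overlapped between all neighbours in the order of means, and the higher library was R1 in 3 groups and CGR8 after 4 days. Against L2i the log2 fold changes were -0.10 ± 0.24 (SE) in LIM, 0.37 ± 0.24 after 35 h and 0.41 ± 0.24 after 4 days. Their adjusted p-values by edgeR's quasi-likelihood test with Benjamini-Hochberg adjustment, used for every adjusted p below unless another tool is named, were 0.81, 0.35 and 0.19. No refit with a library left out called Atf4 in any of these comparisons. With all genes tested and no filter, Atf4 was called higher than in LIM after 35 h in LFAI (0.47, adjusted p = 0.042) and after 4 days (0.48, 0.018).

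Atf5, a related factor also translated through upstream reading frames and linked to mitochondrial stress, was higher after 4 days in LFAI. Atf5 (chr7:44812256-44816658, minus strand) was at 95.6 (R1) and 53.1 CPM (CGR8) in L2i, 116 and 41.9 CPM in LIM, 127 and 62.9 CPM after 35 h, and 208 and 289 CPM after 4 days. The other 3 groups overlapped, and in each of them R1 was above CGR8. The log2 fold change of LFAI 4 days was 1.74 ± 0.50 against L2i (adjusted p = 0.021) and 1.66 ± 0.50 against LIM (0.036). The call against L2i was lost without the CGR8 library of L2i or of LFAI 4 days (adjusted p up to 0.12), and that against LIM without the CGR8 LIM library or either 4-day library (up to 0.17). The value against LIM moved to 2.54 without R1 in LIM and to 1.1 without CGR8 in LIM. Against 35 h it was 1.39 ± 0.50 (adjusted p = 0.055), and 1.56 (0.0082) when blocked on line. Atf5 overlaps Nup62 and Il4i1 by 82 bases on the opposite strand, and the strand setting of the counting is not given in the sources used here.

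Ddit3, which encodes the pro-apoptotic factor CHOP, was low everywhere and lowest in L2i. Ddit3 (chr10:127290774-127296288, plus strand) was at 7.54 (R1) and 5.18 CPM (CGR8) in L2i, 13.8 and 18.5 CPM in LIM, 15.7 and 7.40 CPM after 35 h in LFAI, and 14.1 and 15.7 CPM after 4 days. Both LIM and both 4-day libraries lay above both L2i libraries, and the CGR8 library of 35 h lay below R1 in L2i. Ddit3 was higher in LIM than in L2i by 1.34 ± 0.37 on the log2 scale (adjusted p = 0.036) and in LFAI 4 days than in L2i by 1.22 ± 0.37 (0.026). Neither call was stable: the first was lost without any 1 of the L2i, LIM or 4-day libraries (adjusted p up to 0.16), and the second without CGR8 in L2i or either 4-day library (up to 0.13). Ddit3 shares 68 bases with Mars on the opposite strand.

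Asns, asparagine synthetase, differed from the other 9 genes and was highest in L2i. Asns (chr6:7675169-7693254, minus strand) was at 1093 (R1) and 900 CPM (CGR8) in L2i, 362 and 331 CPM in LIM, 533 and 388 CPM after 35 h in LFAI, and 473 and 591 CPM after 4 days. Both L2i libraries stood above all 6 others, and the LIM libraries stood below all others. Asns was 2.88-fold lower in LIM than in L2i (log2 -1.52 ± 0.19, adjusted p = 0.0013), 2.16-fold lower after 35 h in LFAI (-1.11 ± 0.19, 0.0059) and 1.87-fold lower after 4 days (-0.91 ± 0.19, 0.0045). These 3 comparisons share the L2i libraries. Each of the 3 calls held in all 8 refits with 1 library left out and under the 5 other settings tried. Between the other groups Asns was higher after 4 days in LFAI than in LIM (0.62 ± 0.19, adjusted p = 0.035), a call lost without either LIM library or the CGR8 4-day library (up to 0.20).

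Trib3, a pseudokinase induced by ATF4 and CHOP that feeds back on ATF4, was higher after 4 days in LFAI. Trib3 (chr2:152337422-152344032, minus strand) was at 56.4 (R1) and 31.9 CPM (CGR8) in L2i, 62.8 and 56.9 CPM in LIM, 149 and 66.4 CPM after 35 h, and 112 and 153 CPM after 4 days. L2i, LIM and each LFAI group did not overlap, while the LFAI groups overlapped each other. Against L2i the 4-day difference was 1.58 ± 0.38 on the log2 scale (adjusted p = 0.0095), lost without CGR8 in L2i or after 4 days (up to 0.064). Against LIM it was 1.15 ± 0.38 (0.049), lost without either LIM or either 4-day library (up to 0.24). The 35 h difference from L2i was 1.28 ± 0.38 (adjusted p = 0.055). Blocking on line gave 1.26, which passed (0.025).

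Chac1 encodes an enzyme that degrades glutathione and is a target of ATF4 and CHOP. It did not pass the test in any comparison of groups in the fit of all 8 libraries on group means with the filter on low counts. Chac1 (chr2:119351229-119354381, plus strand) was at 27.9 (R1) and 10.3 CPM (CGR8) in L2i, 30.2 and 33.8 CPM in LIM, 65.8 and 23.1 CPM after 35 h, and 39.3 and 34.8 CPM after 4 days. The lines lay furthest apart in L2i and after 35 h, and close together in LIM and after 4 days. Both LIM and both 4-day libraries were above both L2i libraries. The log2 fold change against L2i was 0.73 ± 0.51 in LIM (adjusted p = 0.36), 1.21 ± 0.51 after 35 h (0.16) and 0.94 ± 0.51 after 4 days (0.17). Blocking on line gave 1.08 for the 4-day difference, which passed (adjusted p = 0.042). With all genes tested and no filter, Chac1 was called higher than in L2i in LIM (0.74, adjusted p = 0.04), after 35 h (1.22, 0.00023) and after 4 days (0.92, 0.0036). The 4-day value was 1.85 without R1 in L2i and 0.39 without CGR8 in L2i.

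Slc7a11, which encodes the cystine-importing exchanger subunit xCT, had the largest fold change of the 10. Slc7a11 (chr3:49892526-50443614, minus strand) was at 2.30 (R1, 50 counts) and 0.863 CPM (CGR8, 13 counts) in L2i, 1.63 and 1.13 CPM in LIM, 8.09 and 2.34 CPM after 35 h in LFAI, and 14.3 and 17.1 CPM after 4 days (228 and 261 counts). The 4-day libraries were above all others, and both 35 h libraries were above those of L2i and LIM. CGR8 at 35 h (36 counts) and R1 in L2i were nearly equal, however, at 2.34 and 2.30 CPM. After 4 days it was 9.68-fold higher than in L2i (log2 3.28 ± 0.64, adjusted p = 0.0034) and 11.3-fold higher than in LIM (3.50 ± 0.65, 0.0052), and both calls held in all 8 refits with 1 library left out. The size against L2i depended on the L2i libraries, with a log2 value of 4.17 without R1 in L2i and 2.75 without CGR8 in L2i. The 35 h group gave 1.69 ± 0.62 against L2i (adjusted p = 0.11). LFAI 4 days gave 1.59 ± 0.59 against 35 h (0.063), and 1.83 (0.014) when blocked on line. The transcript shares a stretch of 585 bases, 92.5% identical, with the abundant tubulin gene Tuba1b, so its low counts are less certain than their number says.

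Phgdh and Psat1, which carry out the first and the second step of serine synthesis, were higher after 4 days in LFAI than in every other group. Phgdh (chr3:98313170-98339990, minus strand) was at 79.8 (R1) and 50.7 CPM (CGR8) in L2i, 77.5 and 75.9 CPM in LIM, 100 and 49.4 CPM after 35 h, and 243 and 262 CPM after 4 days. The first 3 groups overlapped and the 4-day libraries stood apart. Phgdh after 4 days was 3.87-fold higher than in L2i (log2 1.95 ± 0.32, adjusted p = 0.0013), 3.29-fold higher than in LIM (1.72 ± 0.31, 0.0047) and 3.37-fold higher than after 35 h (1.75 ± 0.32, 0.0031). All 3 calls held in each of the 8 refits with 1 library left out and under the 5 other settings, though the value against 35 h was 2.35 without R1 and 1.30 without CGR8 at 35 h. The mouse genome holds many processed pseudogenes of Phgdh, such as Gm7901, 98.7% identical over 1597 bases, and reads aligned to more than 1 place were not counted, so the level of Phgdh may be understated in all libraries.

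Psat1 (chr19:15904678-15947337, minus strand), phosphoserine aminotransferase, was at 648 (R1) and 425 CPM (CGR8) in L2i, 613 and 599 CPM in LIM, 868 and 486 CPM after 35 h, and 1101 and 1331 CPM after 4 days. As for Phgdh, only the 4-day libraries lay apart from the other groups of this set. Psat1 after 4 days differed from L2i by 1.18 ± 0.28 on the log2 scale (adjusted p = 0.0087), from LIM by 1.00 ± 0.28 (0.027) and from 35 h by 0.85 ± 0.28 (0.041). The first call was lost without CGR8 in L2i or after 4 days (adjusted p up to 0.061), and the second without either LIM or either 4-day library (up to 0.14). The third was lost without either LIM library, CGR8 at 35 h or either 4-day library (up to 0.23). It was also lost in a fit of only the 4 libraries compared (0.057).

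Shmt2 converts serine to glycine in mitochondria. Shmt2 (chr10:127517123-127522444, minus strand) was at 361 (R1) and 241 CPM (CGR8) in L2i, 279 and 338 CPM in LIM, 573 and 320 CPM after 35 h, and 490 and 498 CPM after 4 days. The 4-day libraries lay above those of L2i and LIM and within the range of 35 h. The log2 difference of 4 days from L2i was 0.71 ± 0.27 (adjusted p = 0.062) and from LIM 0.68 ± 0.27 (0.095). The first passed in 4 of 5 other settings, among them blocking on line (0.74, 0.029) and DESeq2 (0.021), and the second in 3 of 5, among them the 4 libraries compared alone (0.019) and DESeq2 (0.037). Both passed without the filter on low counts and when either 35 h library was left out (adjusted p up to 0.038).

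**Figure D2:**
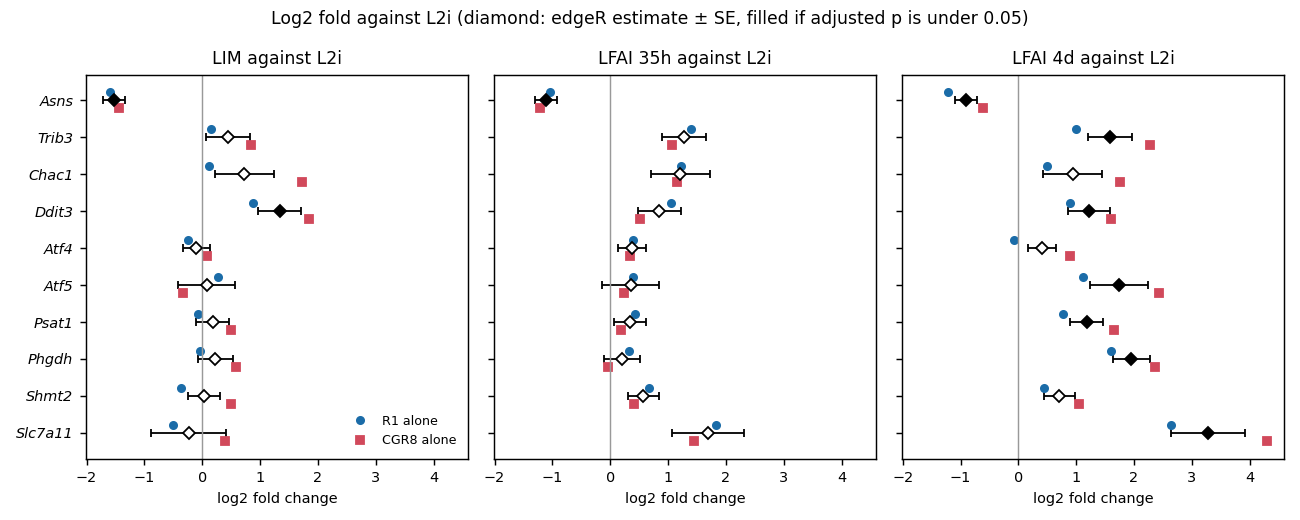
Log2 fold change against L2i (x axis) for the 10 genes (y axis) in LIM, LFAI 35 h and LFAI 4 days. Diamonds with bars are the edgeR estimate ± SE, filled where the adjusted p is under 0.05, and circles and squares are the change within R1 and CGR8 alone. Asns is left of 0 in all 3 panels, and 6 filled diamonds lie to the right of 0 after 4 days, Slc7a11 furthest at 3.28.

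Counted together, few of the 10 genes differed between L2i and LIM. Ddit3 was higher in LIM (1 of 10, against 11.3% of the 15525 genes tested) and Asns lower (1 of 10, against 7.81%). The median log2 difference of the 10 was 0.13, against 0.01 for all genes. With both libraries on 1 side of both others were 3 genes above (31.1% of all) and 1 below (29.8%). After 35 h in LFAI, edgeR called none of the 10 higher than L2i (7.35% of all) and Asns lower (7.16%). Both libraries were above both of L2i for Trib3 and Slc7a11 (2 genes, 29.2% of all) and below them for Asns (29.7%). For Slc7a11 the nearest libraries were at 2.34 (CGR8 at 35 h) and 2.30 CPM (R1 in L2i). At an unadjusted p under 0.05 were 5 genes, Asns, Trib3, Chac1, Ddit3 and Slc7a11. The share of all genes at that level is not given here, so this number has no background. The Wald test of DESeq2 called 2 higher, Trib3 and Slc7a11 (1438 of 15224 genes over all). The number called higher by edgeR depended on the CGR8 library of 35 h. Without it, with R1 alone standing for the group, the log2 differences of Trib3, Chac1, Ddit3, Shmt2 and Slc7a11 were 1.75, 1.78, 1.30, 0.94 and 2.32. Without the R1 library of 35 h they were 0.58, 0.26, 0.21, 0.09 and 0.53.

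The count was larger after 4 days in LFAI. Against L2i 6 of the 10 genes were called higher (21.5% of all) and Asns lower (23.3%), with a median log2 difference of 1.20 (all genes 0). The 6 were Trib3, Ddit3, Atf5, Psat1, Phgdh and Slc7a11. Both 4-day libraries were above both L2i libraries for 8 genes (36.9% of all) and below them for Asns (37%). The 6 calls fell to 2, Phgdh and Slc7a11, without the CGR8 library of L2i or of 4 days, and was 8 without the R1 library of L2i. Against LIM, 6 were higher (12.3% of all), namely Asns, Trib3, Atf5, Psat1, Phgdh and Slc7a11, and none was lower (17.2%). Both 4-day libraries were above both LIM libraries for 9 genes (33.6% of all) and below them for none (34.9%). The 1 gene with a difference below 0 was Ddit3, at -0.12 ± 0.36. The 6 calls fell to 3 without R1 in LIM or after 4 days, and to 2 without CGR8 in LIM or after 4 days. The comparisons with L2i and with LIM share the 4-day libraries, as those of LIM and LFAI with L2i share the L2i libraries.

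Within LFAI, from 35 h to 4 days, 2 of the 10 were called higher, Psat1 and Phgdh (17.7% of all), and none lower (19%). Both 4-day libraries were above both of 35 h for 4 genes, Atf5, Psat1, Phgdh and Slc7a11 (36.7% of all), and below them for none (35.6%). Blocking on line gave 4 calls, Atf5 and Slc7a11 added (3004 of 15525 genes higher over all). The number called was 4 without R1 at 35 h and 1 without CGR8 at 35 h or without either 4-day library. Between LFAI 35 h and LIM edgeR called none of the 10, higher (1.92% of all) or lower (4.46%). Asns, Trib3, Atf4 and Slc7a11 had both 35 h libraries above both of LIM (4 genes, 25.1% of all) and none had both below (27.8%). Only Slc7a11 had an unadjusted p under 0.05 there (log2 1.92 ± 0.64, adjusted p = 0.12). DESeq2 called this gene alone of the 10 (0.028), with 636 of 14923 genes higher over all.

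With 1 library per line and group, the levels in R1 and CGR8 are set side by side here without a test. In L2i all 10 genes were higher in R1 than in CGR8, 9 of them by at least 1.25-fold (22.1% of all genes), and none was higher in CGR8 (22.6%). After 35 h in LFAI all 10 were higher in R1 by at least 1.25-fold (19.2% of all, with 22.9% higher in CGR8), from 1.37-fold for Asns to 3.46-fold for Slc7a11. In LIM Atf5 and Slc7a11 were higher in R1 by that factor (2 of 10, 19.9% of all) and Ddit3 in CGR8 (1 of 10, 24.5%), with a median log2 difference, CGR8 minus R1, of -0.08. After 4 days none was higher in R1 by 1.25-fold (23.1% of all) and 3 were higher in CGR8 (17.2%), Trib3, Atf4 and Atf5. The median difference was -0.63 in L2i, -1.02 after 35 h and 0.26 after 4 days, and 0 for all genes in each group.

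A line term averaged over the 4 groups gave no call. All 10 log2 values of CGR8 against R1 were below 0, while 50.6% of all genes were above it. Their median was -0.35 (all genes 0), and they ranged from -0.80 ± 0.36 for Slc7a11 to -0.14 ± 0.13 for Asns. edgeR called none lower (0.251% of all genes) or higher (0.29%), and DESeq2 called none (147 of 14923 genes lower and 138 higher). An unadjusted p under 0.05 was found for 3, and the share of all genes at that level is not given here. Without either 4-day library Atf5 was called lower in CGR8 (adjusted p down to 0.0097). Whether a medium acts differently in the lines cannot be tested with 1 library of each. The lines also differed in passage number in each group, by 1 to 7, and its part in the result was not tested.

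**Figure D3:**
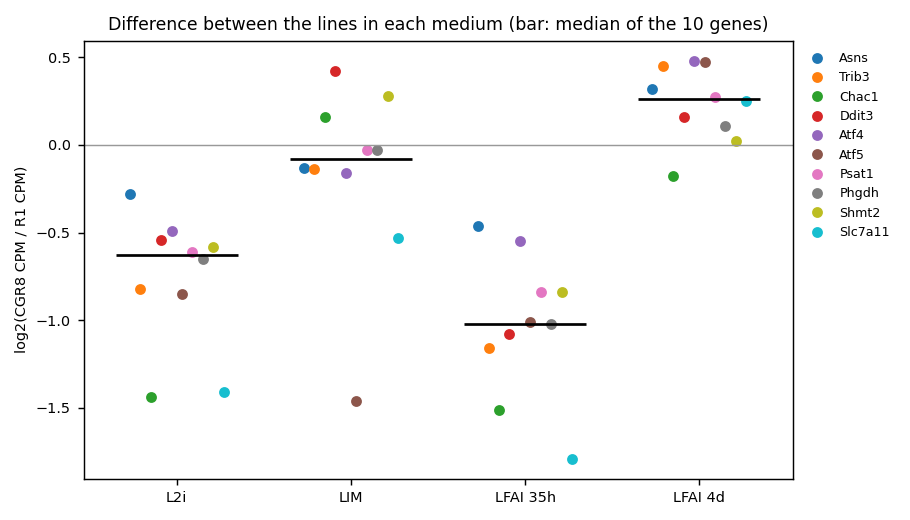
Difference between the lines, log2 of CGR8 CPM over R1 CPM (y axis), for each of the 10 genes in the 4 groups (x axis), 1 coloured point per gene. Black bars are the medians of the 10, at -0.63, -0.08, -1.02 and 0.26 from left to right, so the points sit below 0 in L2i and LFAI 35 h and mostly above it after 4 days.

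In the R1 time courses, too, Asns was highest in L2i, and each of the other 9 genes had its highest LFAI level on day 2 or day 3 (37.2% of all 15703 genes did). Each point is 1 library, so the values carry no test, and the intervals in brackets are 95% Clopper-Pearson intervals that cover counting error only. Asns stood at 943 CPM on day 0. After 1 day it was at 499 CPM in LIM and 519 CPM in LFAI, 0.530 (0.514 to 0.546) and 0.550 (0.534 to 0.566) of day 0. In LIM it then stayed between 494 and 528 CPM. In LFAI it went on to 462, 396 and 237 CPM on days 2, 3 and 4, the last being 0.251 (0.242 to 0.261) of day 0. All 8 later libraries were below day 0.

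Of the 10 genes, 6, 7, 9 and 9 were above day 0 by at least 1.25-fold on days 1 to 4 of LIM (21.3, 25.2, 24.1 and 25.5% of 15703 genes). In LFAI they were 6, 8, 8 and 4 (20, 28.3, 31.4 and 31.9%). Asns was the 1 gene below day 0 by that factor on each day in LIM (19.5, 20.2, 23.6 and 23.5% of all) and on days 1 to 3 in LFAI (17.7, 28.5 and 31%). On day 4 of LFAI Atf4 joined it, 2 of 10 (31.6%). From day 3 to day 4 of LFAI 9 of the 10 genes were lower, 8 of them by at least 1.25-fold, against 15.2% of all genes. The day 3 cells had been in 2i for 4 passages and the day 4 cells for 3, and the part of this was not tested.

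Atf4 was at 290 CPM on day 0 and at 414, 400, 495 and 487 CPM on days 1 to 4 of LIM. In LFAI it was at 378 and 414 CPM on days 1 and 2, then 311 CPM and, on day 4, 216 CPM. The courses of Atf4 thus parted after day 2. Ddit3 was at 7.60 CPM on day 0 and reached 21.2 CPM on day 4 of LIM, 2.78 (2.22 to 3.52) times day 0. In LFAI it was between 10.2 and 12.4 CPM on days 1 to 3 and at 6.44 CPM on day 4. Ddit3 in LIM was highest on the last day, and in LFAI its day 4 value did not differ from day 0 beyond counting error (0.847, 0.632 to 1.13). Atf5 was at 30.0 CPM on day 0, at 63.9 CPM on day 4 of LIM, and in LFAI at 84.4 CPM on day 3 and 46.1 CPM on day 4.

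Trib3 and Chac1 were highest on day 2 of LFAI. Trib3 was at 30.6 CPM on day 0 and at 44.0, 78.7, 56.4 and 34.1 CPM on days 1 to 4 of LFAI. In LIM it lay between 43.2 and 57.7 CPM. Chac1 was at 8.33 CPM on day 0, at 16.1, 48.5, 32.3 and 36.0 CPM in LFAI, and in LIM at 16.8, 21.7, 29.7 and 31.3 CPM. Unlike Trib3, Chac1 was still 4.32-fold (3.52 to 5.34) above day 0 on day 4 of LFAI.

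Slc7a11 rested on few reads, with 4 counts on day 0 (0.292 CPM), 49 on day 3 of LFAI (3.54 CPM) and 28 on day 4 (2.00 CPM). In LIM it had 12 to 15 counts each day. The day 3 value was 12.1-fold (4.44 to 46.2) above day 0. Its day 4 level in LFAI was below that of the both-line set (14.3 and 17.1 CPM). The same held for 9 of the 10 genes, all but Chac1, against 36.1% of 14911 genes, and the day 4 level was 0.128 to 0.972 of the mean of the both-line set. Phgdh, for one, was at 98.7 CPM against 243 and 262 CPM, and Atf4 at 216 CPM against 488 and 679 CPM. These sets were scaled separately, and coating, sequencing protocol and passage number differ between them, so the cause of such gaps cannot be told apart.

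Phgdh was at 59.0 CPM on day 0 and, in LFAI, at 68.5, 66.2, 109 and 98.7 CPM on days 1 to 4. In LIM it reached 83.7 CPM on day 4. Psat1 was at 456 CPM on day 0, at 755 CPM on day 3 and 542 CPM on day 4 of LFAI, and at 701 CPM on day 4 of LIM. Shmt2 was at 240 CPM on day 0, at 346 and 343 CPM on days 2 and 3 of LFAI, at 202 CPM on day 4, and at 362 CPM on day 4 of LIM. Phgdh was thus the 1 gene of these whose day 4 level was higher in LFAI than in LIM, by 1.18-fold (1.09 to 1.28). On days 1 and 2 its ratio of LFAI to LIM was 0.934 (0.852 to 1.02) and 0.981 (0.892 to 1.08).

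On day 4 LFAI was below LIM by at least 1.25-fold for 7 of the 10 genes (30.5% of all genes) and above it for 1, Slc7a11 (31.3%). The ratios of LFAI to LIM ran from 0.304 for Ddit3, 0.443 for Atf4 and 0.449 for Asns to 1.15 for Chac1 and 1.89 (0.964 to 3.89) for Slc7a11. On day 1 none of the 10 differed between the media by 1.25-fold (11.7% of all above, 11.2% below). LFAI was above LIM by that factor for 3 genes on day 2 (25.4% of all) and 3 on day 3 (31%), and below it for none on day 2 (29%) and 2 on day 3 (29.9%).

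**Figure D4:**
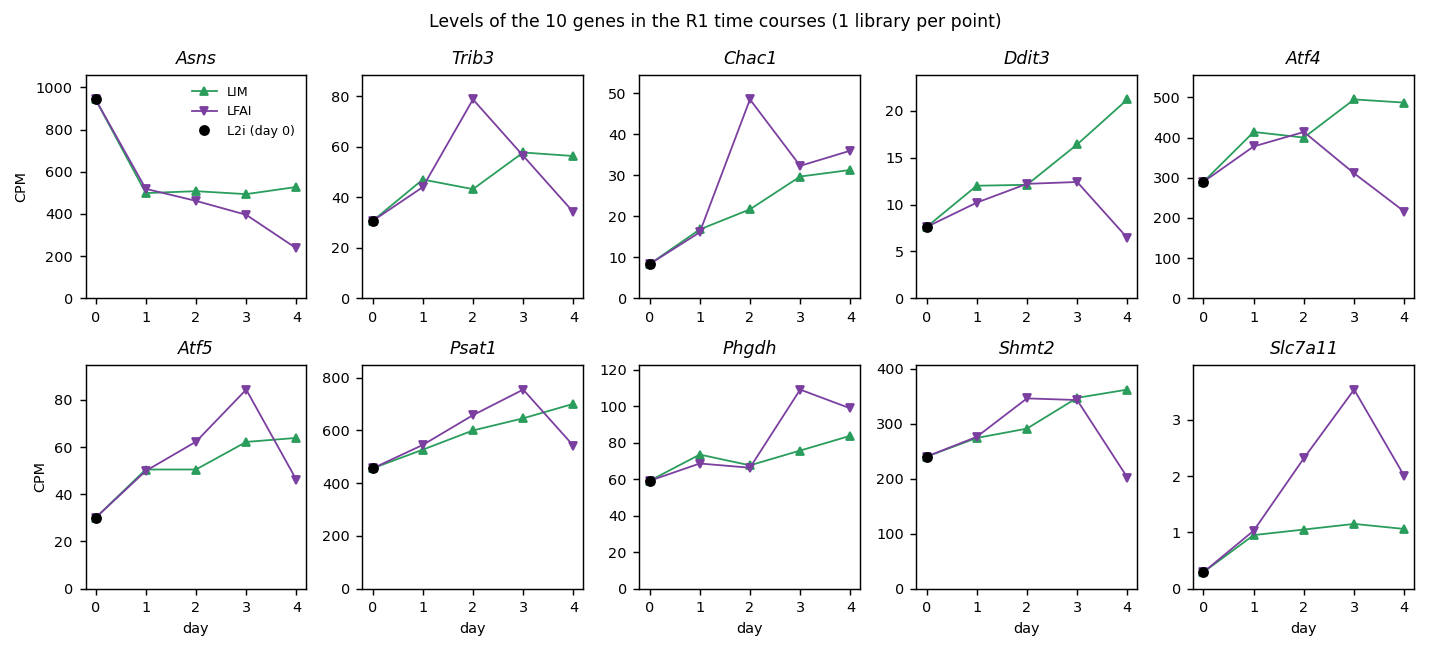
CPM (y axis, from 0, own scale per panel) of the 10 genes on days 0 to 4 (x axis) of the R1 time courses, with 1 library per point. Green triangles are LIM, purple triangles LFAI and the black circle is the shared day 0 in L2i. Asns is below its day 0 level of 943 CPM at all later points, and in LFAI the other 9 genes are highest on day 2 or 3 (37.2% of all genes are), as Trib3 is at 78.7 CPM on day 2.

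Other genes of the pathway were counted in 9 lists, with no test of a list. Against L2i, the calls over all genes came to 11.3% up and 7.81% down for LIM, and to 21.5% up and 23.3% down for 4 days in LFAI. Each count below is to be read against these shares. Among 12 further ATF4 and CHOP pathway genes, 4 were higher in LIM than in L2i (median log2 0.63) and 7 higher and 1 lower after 4 days in LFAI (median 1.00). Stc2, a secreted glycoprotein, was at 11.8 (R1) and 6.18 CPM (CGR8) in L2i, 36.3 and 66.5 CPM in LIM and 61.5 and 116 CPM after 4 days in LFAI (log2 3.29 ± 0.45 against L2i, adjusted p = 0.00052). Cebpg, a dimer partner of ATF4, was at 37.5 and 37.3 CPM in L2i and 76.7 and 105 CPM after 4 days (1.28 ± 0.19, 0.00073). Vldlr, a lipoprotein receptor, was at 7.58 and 2.32 CPM in L2i and 33.4 and 76.0 CPM after 4 days (3.43 ± 0.63, 0.0025). For all 3 genes both 4-day libraries lay above both L2i libraries, as for 36.9% of all genes, but the 3 were named for small p in this same comparison. Gdf15, of the same list, went the other way, at 9.84 (R1) and 6.31 CPM (CGR8) in L2i and 2.39 and 3.07 CPM after 4 days. After 4 days it was called lower than in LIM (-1.29 ± 0.41, adjusted p = 0.043) and than after 35 h (-2.29 ± 0.41, 0.0031).

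Most of the listed amino acid transporters and cytosolic tRNA synthetases, which act on import and on charging, were called higher after 4 days in LFAI in the both-line set. Of 10 transporters, 2 were higher in LIM than in L2i (11.3% of all) and 7 after 4 days in LFAI (21.5%), with none lower in either. Slc7a3, a cationic amino acid importer, was at 202 (R1) and 199 CPM (CGR8) in L2i, 239 and 315 CPM in LIM, 676 and 534 CPM after 35 h and 769 and 819 CPM after 4 days (log2 1.99 ± 0.17 against L2i, adjusted p = 4.9e-05). Slc38a2, a neutral amino acid importer known to respond to amino acid shortage, was highest after 35 h, at 927 and 763 CPM, against 246 and 238 CPM in L2i (1.80 ± 0.14, 0.00024). It was lower again after 4 days than after 35 h (-1.03 ± 0.13, 0.00061). Of 12 tRNA synthetases none was called in LIM, with 9 higher (21.5% of all) and none lower (23.3%) after 4 days in LFAI (median log2 0.61). Sars, which charges tRNA with serine, was at 313 and 225 CPM in L2i and 652 and 824 CPM after 4 days (1.45 ± 0.25, 0.0018). The R1 time course did not show this for the synthetases. On day 4 of LFAI none of the 12 was above day 0 by 1.25-fold (31.9% of all) and 4 were below (31.6%), as Aars at 661 CPM against 955 and Cars at 142 against 252 CPM, with a median log2 difference of -0.20, while on day 4 of LIM 7 were above (25.5%). Of the transporters 6 were above day 0 on day 4 of LFAI and 2 below, Slc7a1 (86.3 against 278 CPM) and Slc1a5 (86.6 against 147 CPM).

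The serine, glycine and one-carbon list held calls in both directions. Against L2i, 1 of the 12 genes was higher in LIM (11.3% of all) and 4 were lower (7.81%), and 5 were higher (21.5%) and 2 lower (23.3%) after 4 days in LFAI. Tdh, threonine dehydrogenase, which feeds glycine and one-carbon units in mouse embryonic stem cells, was at 755 (R1) and 757 CPM (CGR8) in L2i, 259 and 266 CPM in LIM, 362 and 438 CPM after 35 h and 16.2 and 23.6 CPM after 4 days. After 4 days it was 38-fold lower than in L2i (log2 -5.25 ± 0.21, adjusted p = 2.4e-06). Aldh1l2, a mitochondrial folate enzyme, was at 5.84 and 6.18 CPM in L2i and 44.1 and 60.0 CPM after 4 days (3.11 ± 0.33, 0.00015). Psph, the last enzyme of serine synthesis, was at 49.5 and 54.7 CPM in LIM and 117 and 139 CPM after 4 days in LFAI (1.29 ± 0.27, 0.0091). In the R1 time course Tdh went from 769 CPM on day 0 to 156 CPM on day 4 of LIM and 42.9 CPM on day 4 of LFAI. Aldh1l2 was at 4.97, 9.3 and 6.01 CPM in these libraries, and Psph at 47.7, 91.5 and 54.3 CPM. The large rise of Aldh1l2 was thus not seen there, and on day 4 both genes were lower in LFAI than in LIM.

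Of 8 other amino acid synthesis enzymes, 1 was higher (11.3% of all) and 2 lower (7.81%) in LIM, and 2 were higher (21.5%) and 1 lower (23.3%) after 4 days in LFAI, so the counts of genes called higher were near the background. Cbs, which starts the route from homocysteine to cysteine, was at 104 (R1) and 132 CPM (CGR8) in L2i, 27.1 and 28.7 CPM in LIM and 41.5 and 42.7 CPM after 4 days (log2 -2.08 ± 0.17 in LIM, adjusted p = 0.00024). Of 7 NRF2 antioxidant genes, 1 was higher and 2 lower in LIM, and 4 were higher (21.5% of all) and 2 lower (23.3%) after 4 days in LFAI. Gclm, a subunit of the enzyme that starts glutathione synthesis, was higher after 4 days (1.08 ± 0.12, 0.0002), and Nqo1, a quinone reductase, was lower (-1.96 ± 0.20, 0.00013).

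The upstream and neighbouring arms of the stress response held few calls. Of 8 genes for eIF2 kinases, subunits of eIF2 and eIF2B, and phosphatase subunits, none was higher than in L2i. In LIM 1 was lower (7.81% of all), Eif2b5 of eIF2B, and 3 were lower after 4 days in LFAI (23.3%). The 3 were Eif2ak2, the kinase that senses double-stranded RNA (log2 -1.38 ± 0.24, adjusted p = 0.0018), Eif2b5 (-0.71 ± 0.15, 0.0058) and Ppp1r15a (-0.48 ± 0.15, 0.032). Of 12 ER chaperones and other unfolded protein response genes none was called in LIM, and none was higher (21.5% of all) and 3 lower (23.3%) after 4 days, the latter near the background (median log2 -0.39). The 3 were Dnajb9, Calr and Creld2, for which log2 values ran from -0.86 to -0.54. Hspa5, the chief ER chaperone, was at 789 (R1) and 785 CPM (CGR8) in L2i and at 978 and 368 CPM after 4 days, so the lines lay on both sides of L2i. Of 6 mitochondrial chaperones and proteases, Hspa9 was higher after 4 days (0.42 ± 0.15, 0.044) and none was called in LIM.

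**Figure D5:**
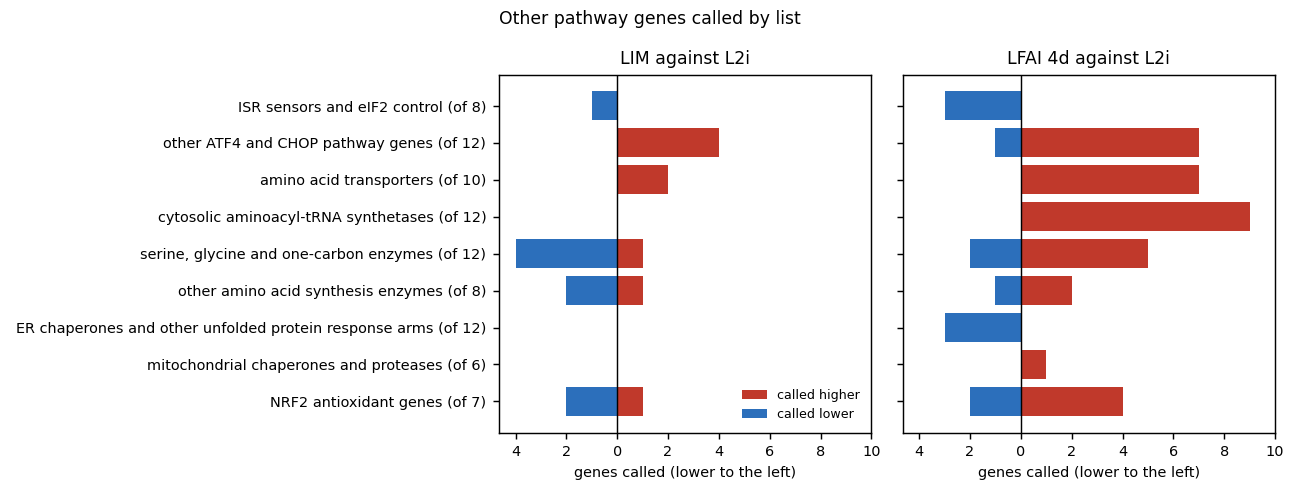
Genes called (x axis, lower to the left of 0 and higher to the right, adjusted p under 0.05) in each of the 9 other lists (y axis, with the number tested) for LIM and LFAI 4 days against L2i. After 4 days 9 of 12 tRNA synthetases and 7 of 10 transporters are to the right with none to the left, while the ER chaperone and eIF2 lists have 3 each to the left and none to the right. Over all genes 21.5% were higher and 23.3% lower.

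The 10 genes did not vary as 1 unit. Among the 9 genes other than Asns, Pearson correlations of log2 CPM ran from 0.41 to 0.97 over the 8 libraries of the both-line set (36 pairs, median 0.79) and from -0.35 to 0.95 over the 9 time-course libraries (median 0.68). Those of Asns with the 9 ran from -0.63 to 0.13 (median -0.05) and from -0.78 to 0.38 (median -0.35). Atf4 was closest to Trib3 in the first set (0.89) and to Ddit3 in the second (0.89). The libraries of a set share line, medium and scaling, so these values describe the samples and carry no test.

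The genes outside the list whose levels followed Asns most closely were Ppib, Rpp21, Bcat1, Patz1 and Eif2b5, of 9121 genes with at least 10 CPM on average. Their correlations with Asns over the 8 and the 9 libraries were 0.96 and 0.91 for Ppib, 0.91 and 0.92 for Rpp21, 0.92 and 0.89 for Bcat1, 0.90 and 0.88 for Patz1 and 0.93 and 0.88 for Eif2b5. Bcat1, a branched-chain aminotransferase, was at 1079 (R1) and 1122 CPM (CGR8) in L2i, 377 and 415 CPM in LIM, 425 and 438 CPM after 35 h in LFAI, and 435 and 488 CPM after 4 days. In the time course it was at 1156 CPM on day 0, 662 CPM on day 4 of LIM and 186 CPM on day 4 of LFAI. For all 5 both L2i libraries were above the other 6 of that set, and day 0 was above day 4 of both media. The 5 were chosen for likeness to Asns over these same libraries, so this pattern follows largely from the choice.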

How the data were processed

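Polyadenylated RNA was sequenced from 17 cultures with a stranded kit, per the labels' protocols. The deposited values are the authors' raw counts of reads per Ensembl gene. The submitters' processing notes name HISAT2 2.0.4, HTSeq 0.6.1, DESeq2 1.10.1 and the build GRCm38. The strand setting and annotation release of the counting are not given in the sources used here. Of 47729 genes, 47310 (99.12%) matched GENCODE M21, and 5 summary entries per file, holding 47.7 to 51.9% of reads, were left out. The files held no identical pair of libraries.

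The 8 libraries with both lines were fitted together in edgeR 4.0.16 (R 4.3.3): filterByExpr by group (15525 genes), TMM scaling (factors 0.964 to 1.033), and the quasi-likelihood test on group means with 4 residual degrees of freedom, two-sided. Benjamini-Hochberg adjustment covered all tested genes, and calls required an adjusted p below 0.05. The comparison of the lines added a line term (3 residual degrees of freedom). Replicate 1 is R1 and replicate 2 CGR8 in every group, so the line pairs the samples; correlations of the line difference between groups were 0.04 to 0.40, and blocking on line lowered the common coefficient of variation from 0.225 to 0.176. CPM use the TMM library sizes, and CPM per kb the merged exon length of GENCODE M21. The 9 time-course libraries were scaled separately by TMM and given as CPM and ratios, with no test. Where a comparison rests on 1 library a side, a 1.25-fold difference was counted. The fit was also run on simulated counts with the same spread for every gene and no line difference. That setting is simpler than these data, so it does not show how the fit performs on them.

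All 10 genes are named throughout. Of each other list up to 4 called genes with the smallest p per comparison may be named, and for likeness to Asns the 5 with the highest smaller correlation of both sets. Hspa5 was added after its values were seen. Aars, Cars, Slc7a1 and Slc1a5 also lie outside the rule and were picked for lower levels on day 4 of LFAI. Psph, Cbs and the other list genes follow the rule. The 10 genes and the lists were chosen with earlier results of these data known. Alternatives were scaling by DESeq2 size factors, testing all genes with at least 1 count, DESeq2 1.42.0 (Wald), blocking on line, fitting only the 4 libraries compared, leaving out each library in turn, and for the time courses DESeq2 size factors and a prior count of 0.5 in place of 2.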

Additional observations from a re-analysis of the deposited data

Results flagged for a closer look

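For 14 values the change between groups ran in opposite directions in R1 and CGR8, beyond counting error. Counting error leaves out scaling and the spread between cultures, and the share of all genes with such a pattern is not given here. Several changes within a line were small, as for Atf4 (0.09 in CGR8 in LIM, -0.07 in R1 after 4 days). Each is the log2 change in CGR8 minus that in R1. With 1 library per line and group the difference itself was not tested, and the lines also differ in passage.

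Between L2i and LIM, Atf4 differed by 0.34 (-0.25 in R1 and 0.09 in CGR8), Psat1 by 0.58 (-0.08 and 0.50) and Shmt2 by 0.86 (-0.37 and 0.49). Atf5 went the other way, by -0.61 (0.27 in R1 and -0.34 in CGR8). Between L2i and 4 days in LFAI, Atf4 differed by 0.97 (-0.07 in R1 and 0.90 in CGR8).

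From LIM to 35 h in LFAI, Chac1, Phgdh, Psat1 and Shmt2 were higher in R1 and lower in CGR8. The differences were -1.67 for Chac1 (1.12 and -0.55), -0.99 for Phgdh (0.37 and -0.62), -0.80 for Psat1 (0.50 and -0.30) and -1.12 for Shmt2 (1.04 and -0.08). From 35 h to 4 days in LFAI the signs were opposite, lower in R1 and higher in CGR8. Asns differed by 0.78 (-0.17 and 0.61), Trib3 by 1.62 (-0.41 and 1.21), Chac1 by 1.33 (-0.74 and 0.59), Atf4 by 1.02 (-0.46 and 0.56) and Shmt2 by 0.87 (-0.23 and 0.64). The last 2 comparisons share the 35 h libraries, in which all 10 genes were higher in R1.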

How the results depend on the processing

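The calls of Asns against L2i in all 3 groups, of Phgdh after 4 days in LFAI against each other group, and of Slc7a11 after 4 days against L2i and LIM held under every alternative run. Leaving out 1 library at a time gave counts of genes called higher from 0 to 1 (LIM against L2i), 0 to 5 (LFAI 35 h against L2i), 2 to 8 (4 days against L2i), 2 to 7 (4 days against LIM) and 1 to 4 (4 days against 35 h), and 0 to 1 called lower in CGR8. In these refits the lone library of a group is assumed to vary like the others, and their shares over all genes are not given here. With the line as a block, 35 h against L2i gave 1 higher (1387 of 15525 genes over all) and 4 days against 35 h gave 4 (3004). The block changed no calls other than those given above, and the pairing by line is exact. The Wald test of DESeq2 gave 2 higher for 35 h against L2i (1438 of 15224 genes over all) and 1 for 35 h against LIM (636 of 14923). Without a filter 26288 genes were tested, and the prior degrees of freedom of the spread went from 4.76 to 97.24. For LIM against L2i 2 of the genes described were then higher (2333 of 26288 genes over all). The count was 4 each for 35 h against L2i (1648 over all), 35 h against LIM (746) and 4 days against 35 h (2814). It was 8 each for 4 days against L2i (3408) and 4 days against LIM (1923). In CGR8 4 were lower than in R1 (337 over all). Over all genes 35 h against LIM called 990, and 2205 without a filter, 1489 with the block, 565 in its own 4 libraries and 1710 by DESeq2; CGR8 against R1 called 84, 678 without a filter and 285 by DESeq2.

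With 1 library left out, the sign changed in 28 refitted values, which belong to 21 uncalled gene comparisons. The log2 ranges of these for LIM against L2i were -0.33 to 0.17 (Atf4), -0.83 to 0.63 (Atf5), -0.10 to 0.51 (Psat1), -0.06 to 0.60 (Phgdh), -0.23 to 0.36 (Shmt2) and -0.74 to 0.67 (Slc7a11). For 35 h against L2i they were -0.24 to 0.84 (Atf5), -0.14 to 0.70 (Psat1) and -0.40 to 0.63 (Phgdh). For 35 h against LIM they were -0.47 to 1.05 (Chac1), -0.32 to 1.19 (Atf5), -0.32 to 0.54 (Psat1) and -0.63 to 0.41 (Phgdh), and for 4 days against LIM -0.33 to 0.11 (Ddit3). For 4 days against 35 h they were -0.03 to 0.45 (Asns), -0.19 to 1.00 (Trib3), -0.86 to 0.68 (Chac1), -0.10 to 1.01 (Ddit3), -0.23 to 0.34 (Atf4) and -0.25 to 0.63 (Shmt2), and for CGR8 against R1 -0.48 to 0.05 (Ddit3). The causes were not tested. All 160 time-course values stayed within their counting intervals with other scaling or prior count. Depth limits Slc7a11 in the time courses, and the counts over the 9 other lists were taken in the fit described only.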
